A study of Drosophila melanogaster with 12 samples.

Results

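Cytochromes P450 are heme enzymes that use molecular oxygen and electrons from NADPH to oxidise fatty acids, hormones, pigments and foreign compounds. In insects most of them sit in the endoplasmic reticulum and draw electrons from a P450 reductase, sometimes through cytochrome b5, whereas the mitochondrial clan is fed by ferredoxin. Members of the Cyp6, Cyp9 and Cyp28 families are best known from the clearance of plant toxins and insecticides, Cyp4 members from fatty acid and hydrocarbon metabolism, and a few named P450s from the synthesis and breakdown of the moulting hormone. In adult flies the fat body, midgut and Malpighian tubule are the main sites of detoxification.

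The 81 genes described here are those whose array annotation gives 1 gene symbol made of Cyp, digits and a letter, taken from 11981 genes with a probe set of their own. They have 83 probe sets, and for Cyp12e1 and Cyp18a1, which have 2 each, the probe set with the higher mean signal was used. The Cyp6 family has 23 members, Cyp4 has 22, families such as Cyp309 and Cyp312, grouped here as Cyp3xx, have 19, Cyp12 has 6, Cyp9 has 5, Cyp28 has 4, and Cyp18 and Cyp49 have 1 each. By clan, 37 belong to the CYP3, 32 to the CYP4, 8 to the mitochondrial and 4 to the CYP2 clan. The symbol rule leaves out P450s with names of their own, such as spo, dib, sad and shd of ecdysone synthesis, which are given separately. The rule uses gene names and no signal.

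RNA came from whole flies aged 1 day. The mutant carried tko25t, a point mutation in the gene of mitoribosomal protein S12 that impairs mitochondrial protein synthesis, and mutant and wild-type flies alike were an F1 generation with a Canton S mother and an Oregon R father, the mutation having first been moved into both strains by repeated backcrossing. The 4 groups were tko25t males, wild-type males, tko25t virgin females and wild-type virgin females, each with 3 arrays, and each array held RNA pooled from its own batch of flies. In RNA of whole flies, fewer cells of a type and less RNA per cell cannot be told apart.

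Values are MAS5 signals on a linear scale, brought by the authors to 1 trimmed mean of 150 on every array. Between 71 and 77 of the 81 genes lay above the 25th percentile of their array and 53 to 59 above its median. Differences were tested with limma on log2(signal + 11.9), over all 18769 probe sets that are not controls, and a gene is said to have risen, fallen or been called where the adjusted p was under 0.05. The added constant pulls log2 differences of dim genes towards 0. Folds, where given, are ratios of mean signals. A few arrays stood apart. Eggshell and yolk transcripts, which mark ovary, summed to 5147 on wild-type male replicate 1 and 3102 on replicate 2 against 202 to 424 on the other male arrays, and testis transcripts summed to 1351 on tko25t female replicate 1 against 187 to 466 on the other female arrays. Probe sets of 18S ribosomal RNA gave, for the middle one, 3895 to 4075 in wild-type and 194 to 357 in tko25t males but 90.8 to 190 in all females. In males this separates the genotypes, so its cause and the mutation cannot be told apart in the male comparisons. It also separates wild-type males from wild-type females, so its cause and sex cannot be told apart there. The average over the sexes and the difference between them also draw on these wild-type males.

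In tko25t males 9 P450 genes rose and 3 fell. Cyp6a23 rose most, followed by Cyp4e3, Cyp6a8, Cyp28a5 and Cyp309a1, and Cyp6t1, Cyp6a17 and Cyp312a1 were the genes that fell. The 12 calls are 14.8% of the family, against 4.46% of all probe sets (2.14% higher in mutants and 2.32% lower). At an unadjusted p under 0.05 there were 24 family members (29.6%), against 20.5% of all probe sets. The median log2 fold change of the 81 genes was 0.05, against -0.08 over all probe sets, so the middle of the family lay near 0 and the larger values were held by a few genes. The median of the array itself was lower in mutant males, with a log2 difference of -0.10, and after centring each array on its median 10 members (2.84% of all probe sets) were higher and 3 (1.19% of all) lower. Without the 2 wild-type males that carried ovary transcripts, which leaves 1 wild-type male, only Cyp6a23 and Cyp6t1 were called (0.165% of all probe sets). In 14 genes (17.3%; 9.85% of all probe sets) the 3 mutant males were all above the 3 wild-type males, and in 11 (13.6%; 17.4% of all) all below.

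In tko25t females 4 genes rose, Cyp6a23, Cyp6a8, Cyp4d1 and Cyp6a20, and 2 fell, Cyp6a17 and Cyp6t1. These 6 are 7.41% of the family, against 0.693% of all probe sets (0.485% higher in mutants and 0.208% lower), and 20 members (24.7%; 10.2% of all) had an unadjusted p under 0.05. The median log2 fold change was 0.10 for the family and -0.03 for all probe sets. The mutant females were all above wild type in 15 genes (18.5%; 7.36% of all) and all below in 8 (9.88%; 8.06% of all). Leaving out any of female mutant replicates 1 and 3 or the 3 wild-type females left 0 or 1 of the 6 calls, while leaving out mutant replicate 2 gave 10 calls. The shares of all probe sets called in these refits are not given, so the changes are not read as particular to P450 genes.

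**Figure D1:**
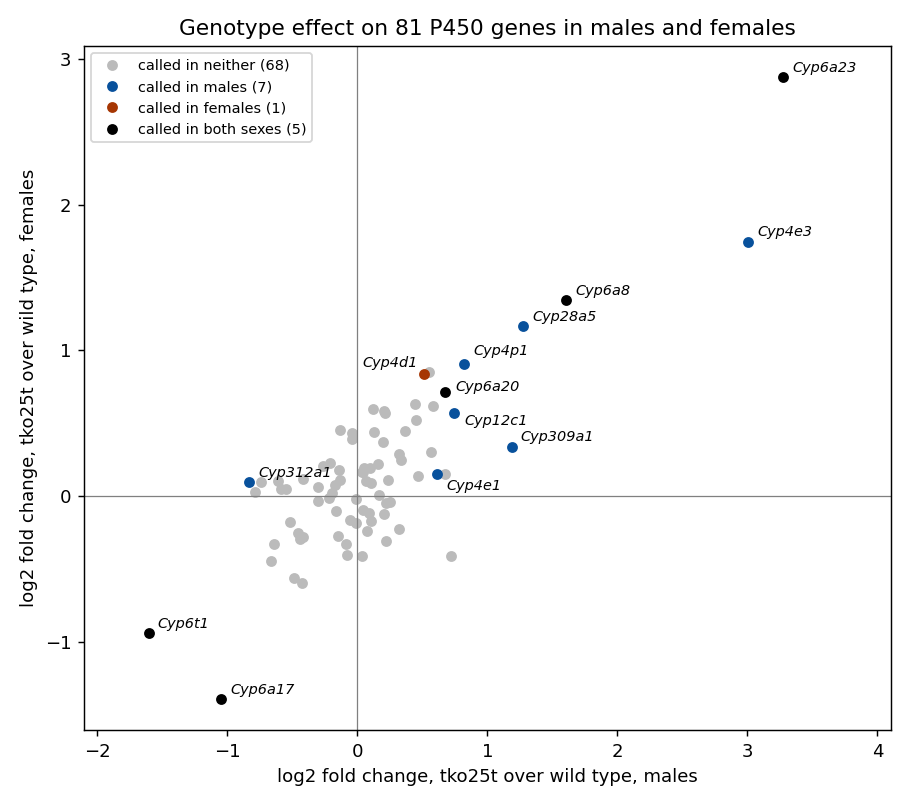
Each point is 1 of the 81 P450 genes, with its log2 fold change of tko25t over wild type in males on the x axis and in females on the y axis (3 arrays a group), and the colour gives the sex in which it was called. Cyp6a23 lies far out at 3.28 and 2.87, Cyp6t1 and Cyp6a17 lie below 0 on both axes, and most of the 68 uncalled genes lie near the origin.

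The same 5 genes were called in both sexes, with the same direction in each: Cyp6a23, Cyp6a8 and Cyp6a20 rose, and Cyp6a17 and Cyp6t1 fell. All belong to the Cyp6 family. Of the 12 genes called in males, 11 had the same sign in females, the exception being Cyp312a1. The matching shares over all called probe sets are not given, so these counts are not read as particular to the family. Over the whole family 53 genes (65.4%) had the same sign in both sexes, against 56.5% of all probe sets. The 2 comparisons share no array, but a male and a female array may share a cross.

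Cyp6a23, a member of a large cluster of detoxification-type genes, gave signals of 983, 1014 and 1759 in tko25t males against 142, 102 and 101 in wild-type males. In females the mutant values were 1002, 331 and 901 and the wild-type values 84.9, 85.9 and 73.2. No mutant array of either sex reached down to any wild-type array, and tko25t female replicate 2 was the lowest of the mutants. Mean signal was thus 10.9-fold higher in mutant males and 9.16-fold higher in mutant females, and the log2 fold change was 3.28 (SE 0.22, adjusted p = 1.70e-04) in males and 2.87 (SE 0.38, adjusted p = 0.0238) in females. The male call held when any single array was left out, but leaving out mutant replicate 1, mutant replicate 3 or any of the wild-type arrays ended the female call (adjusted p = 0.0749 to 0.139).

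Cyp6a17, which in flies affects the choice of temperature and is the direct neighbour of Cyp6a23 on chromosome arm 2R, went the other way. Its signals were 148, 106 and 156 in tko25t males and 369, 263 and 255 in wild-type males. Mutant females gave 144, 83.4 and 91.3 and wild-type females 319, 293 and 264. All 6 mutant arrays were thus below all 6 wild-type arrays. The log2 fold change was -1.05 (SE 0.18, adjusted p = 0.0150) in males and -1.39 (SE 0.19, adjusted p = 0.0283) in females, and the female call did not survive the omission of mutant replicate 3 or of any wild-type array (adjusted p = 0.0762 to 0.178).

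Cyp6a8, known from strains that resist DDT and as a hydroxylase of lauric acid, gave 232, 326 and 236 in tko25t males and 94.2, 90.3 and 54.6 in wild-type males. In females it was dimmer, at 133, 79.5 and 103 in mutants and 35.4, 33.2 and 31.8 in wild type. Groups did not overlap in either sex. The log2 fold change was 1.61 (SE 0.20, adjusted p = 0.00484) in males and 1.34 (SE 0.20, adjusted p = 0.0407) in females, the latter being lost in the same 5 refits as for Cyp6a23 (adjusted p = 0.102 to 0.218).

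Cyp6a20, which has been tied to aggression in males, rose by a smaller but even amount. Signals were 474, 398 and 444 in mutant and 264, 309 and 240 in wild-type males, and 456, 385 and 402 in mutant and 247, 248 and 249 in wild-type females. Every mutant array exceeded every wild-type array. In log2 terms this was 0.67 (SE 0.11, adjusted p = 0.0150) in males and 0.71 (SE 0.10, adjusted p = 0.0259) in females. Without male mutant replicate 1 or 3 the male call was lost (adjusted p = 0.0711 and 0.0531), and the female call was again lost in those 5 refits (adjusted p = 0.0762 to 0.167).

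Cyp6t1 showed the largest fall of the family in males. Its signals were 83.2, 74.5 and 79.2 in tko25t males against 284, 224 and 288 in wild type, and 111, 111 and 132 in tko25t females against 224, 215 and 275 in wild type. The mutants were all lower, with little spread between their arrays. Wild type exceeded the mutant 3.36-fold in mean signal in males and 2.01-fold in females. The log2 fold change was -1.60 (SE 0.13, adjusted p = 4.25e-04) in males and -0.94 (SE 0.13, adjusted p = 0.0308) in females, where the call was lost in 5 of 6 refits with 1 array left out (adjusted p = 0.0815 to 0.139). The male fall was the larger by 0.66 (SE 0.19), which is not a called difference (adjusted p = 0.239).

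**Figure D2:**
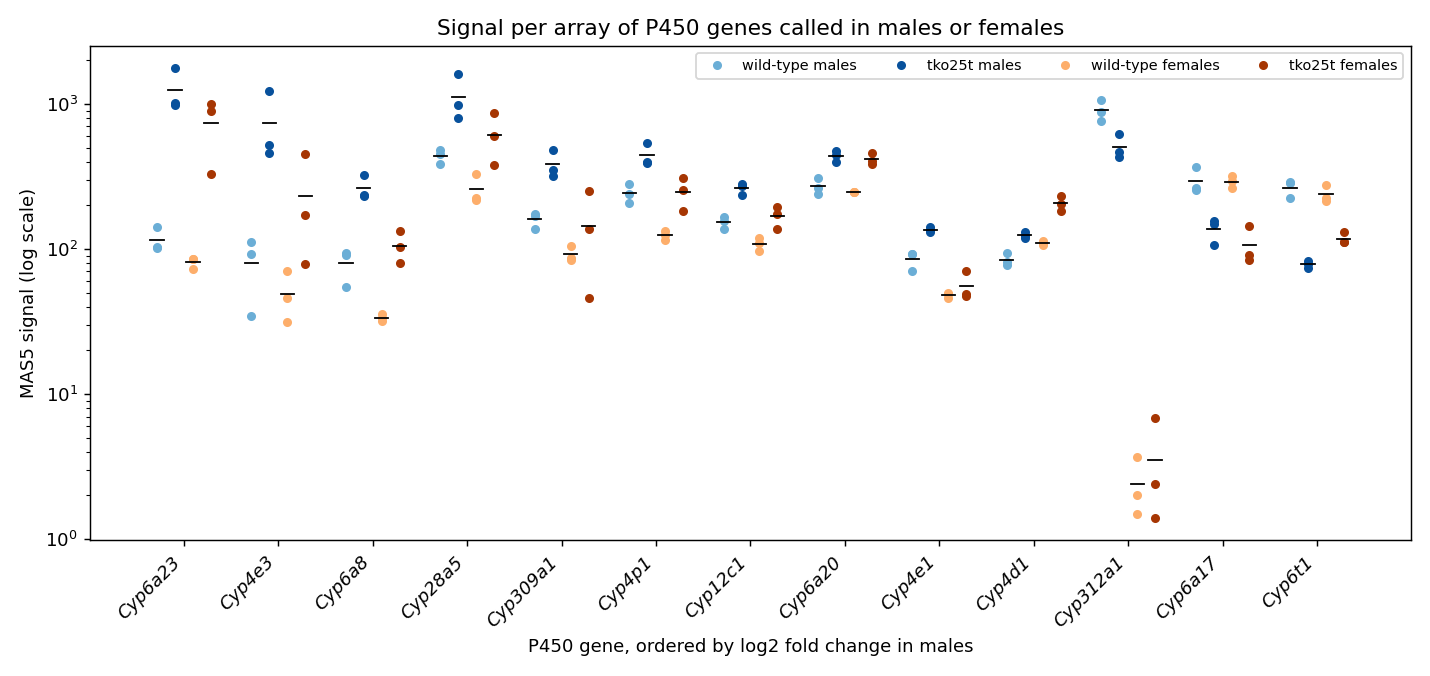
MAS5 signal on a log axis of the 13 P450 genes called in males or females, 1 point per array in 4 groups of 3, with a black bar at each group's mean. The mutant and wild-type points of Cyp6a23, Cyp6a8, Cyp6a20, Cyp6a17 and Cyp6t1 are apart in both sexes. So are those of Cyp4e3, Cyp28a5, Cyp4p1, Cyp4d1 and Cyp12c1. The mutant females of Cyp4e3 and Cyp309a1 spread widely, and Cyp312a1 is near the floor in all females.

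In the RefSeq gene order of the Release 6 assembly, 41 of the 81 genes lie in 14 runs of P450 genes with no other protein-coding gene between them. The longest run, on arm 2R, holds 9 members in the order Cyp6a22, Cyp6a17, Cyp6a23, Cyp6a19, Cyp6a9, Cyp6a20, Cyp6a21, Cyp6a8 and Cyp317a1. Of these, 3 rose in both sexes, 1 fell in both, and 5 were not called in either sex, with log2 fold changes between -0.42 and 0.67. The strongest rise and one of the falls stood side by side. Each of the 81 probe sets has a suffix that marks probes of a single gene (75 plain and 6 shared by transcripts of that gene), and the set of probes common to Cyp12d1-d and Cyp12d1-p is not among them.

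Cyp6a13, Cyp6a14 and Cyp6a2 passed the test only when the sexes were averaged in a fit of all 12 arrays. That fit called 15 members, 11 higher and 4 lower in mutants, or 18.5% of the family against 4.43% of all probe sets (2.87% higher, 1.56% lower). Cyp6a13 rose by a log2 of 0.41 (SE 0.09, adjusted p = 0.0181), while Cyp6a14, its direct neighbour, fell by 0.49 (SE 0.10, adjusted p = 0.0166). Cyp6a2, known for metabolism of insecticides, fell by 0.55 (SE 0.13, adjusted p = 0.0288). Their signals did not overlap between genotypes in either sex, Cyp6a2 for example giving 218 to 352 in mutant and 381 to 517 in wild-type males. The calls of these 3 genes were lost on leaving out 1 of several arrays (Cyp6a13 in 3 of 12 refits, Cyp6a2 in 6 and Cyp6a14 in 1, adjusted p up to 0.0776).

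Among Cyp4 genes, Cyp4e3 stood out. It is known in the Malpighian tubule for tolerance of the insecticide permethrin. Its signals were 458, 524 and 1227 in tko25t males against 34.8, 112 and 92.2 in wild-type males, and 451, 79.4 and 171 in tko25t females against 70.0, 31.3 and 46.1 in wild type. Within either sex the groups did not overlap, but the mutant arrays differed from each other by several-fold, female replicate 2 being close to the highest wild-type female. In males the mean was 9.23-fold higher and the log2 fold change 3.00 (SE 0.42, adjusted p = 0.00731). In females it was 4.76-fold higher, with a log2 fold change of 1.75 that was not called (adjusted p = 0.287), and the difference between the sexes, 1.26 (SE 0.78), was not called either (adjusted p = 0.564).

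Cyp4p1 gave 396, 391 and 539 in mutant and 281, 241 and 209 in wild-type males, a log2 fold change of 0.82 (SE 0.15, adjusted p = 0.0185). In females it was 0.90 without a call (adjusted p = 0.0986), although the groups did not overlap. Averaged over the sexes the rise was 0.86 (SE 0.13, adjusted p = 0.00215). Its neighbours Cyp4p2 and Cyp4p3 were not called, at -0.15 and 0.13 in males. Cyp4d1 was the only gene called in females and not in males: it gave 203, 184 and 231 in mutant and 106, 113 and 110 in wild-type females, a log2 fold change of 0.84 (SE 0.12, adjusted p = 0.0314), and 131, 120 and 124 against 82.0, 77.4 and 93.8 in males, a value of 0.51 (adjusted p = 0.0736). The difference between the sexes was not called (adjusted p = 0.487). Cyp4e1 rose in males by 0.61 (SE 0.14, adjusted p = 0.0475), a call that was lost on leaving out any 1 of the 6 male arrays (adjusted p = 0.0695 to 0.167), and stood at 0.15 in females. For Cyp4p1 the male call depended on 3 arrays, mutant replicate 1 and wild-type replicates 2 and 3 (adjusted p = 0.0507 to 0.0671 without each).

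Of 22 Cyp4 genes, 3 thus rose and 0 fell in males by limma, and 1 rose in females, with family medians of -0.06 and 0.06. Cyp4g1, the oenocyte enzyme that makes cuticular hydrocarbons and the brightest member by far, gave 7958 to 11513 in mutant and 8747 to 13948 in wild-type males, and 8431 to 8665 in mutant and 7915 to 9306 in wild-type females. It was not called in either sex (log2 fold change -0.20 and 0.02).

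Of the 4 Cyp28 genes only Cyp28a5 was called. Its signals were 982, 794 and 1599 in mutant and 384, 452 and 482 in wild-type males, and 866, 380 and 600 in mutant and 219, 226 and 329 in wild-type females. Within each sex the genotypes did not overlap, and mutant female replicate 2 was again the lowest of the mutants. The log2 fold change was 1.28 (SE 0.22, adjusted p = 0.0158) in males, lost without wild-type replicate 1 or 2 (adjusted p = 0.0576 and 0.0570), and 1.17 in females (adjusted p = 0.177). The average over the sexes was 1.22 (SE 0.20, adjusted p = 0.00469). The brightest member, Cyp28d1, differed by 0.17 in males and 0.01 in females, neither called.

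Among the Cyp9 genes, Cyp9b2 was called only in the average over the sexes, at 0.70 (SE 0.14, adjusted p = 0.0154), with 533 to 671 in mutant against 331 to 505 in wild-type males. The brightest, Cyp9f2, lay at 0.06 and 0.10. All 5 Cyp9 genes had a positive value in females and 4 of them in males.

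Cyp12 genes encode mitochondrial P450s, which take electrons from ferredoxin. Cyp12c1 gave 281, 237 and 273 in mutant and 137, 166 and 156 in wild-type males, and the groups did not overlap. Its log2 fold change was 0.74 (SE 0.11, adjusted p = 0.0107) in males, lost without mutant replicate 1 (adjusted p = 0.0588), and 0.57 in females (adjusted p = 0.216). Cyp12a5 rose by 0.60 (SE 0.14, adjusted p = 0.0275) in the average, a call lost in 8 of 12 refits with 1 array left out, while Cyp12a4, known from resistance to lufenuron and the brightest of this family, stood at 0.16 and 0.22 and was not called. Over the 8 genes of the mitochondrial clan 1 rose in males and 0 were called in females by limma, where 6 of 8 values were positive.

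The Cyp3xx genes, most of them of unknown function, held 1 rise and 1 fall in males and no call in females. Cyp309a1 gave 319, 353 and 478 in mutant and 174, 136 and 170 in wild-type males, without overlap, a log2 fold change of 1.19 (SE 0.16, adjusted p = 0.00598). Mutant females gave 250, 45.8 and 137 and wild-type females 106, 86.5 and 83.7. These groups overlapped, with mutant replicate 2 below every wild-type female. The female value of 0.34 was not called (adjusted p = 0.876) and turned to -0.16 without mutant replicate 1. Cyp312a1, above the 25th percentile of its array in males only, gave 620, 467 and 432 in mutant and 1073, 885 and 766 in wild-type males. It fell by 0.83 (SE 0.16, adjusted p = 0.0211), and 4 of the 6 refits with 1 array left out (mutant replicates 2 and 3, wild-type replicates 1 and 2) did not call it (adjusted p = 0.0644 to 0.0729). The 11 testis markers summed to 24254 to 30705 in mutant and 31309 to 36483 in wild-type males, 2 of them fell there, and their part in the fall of Cyp312a1 was not tested.

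**Figure D3:**
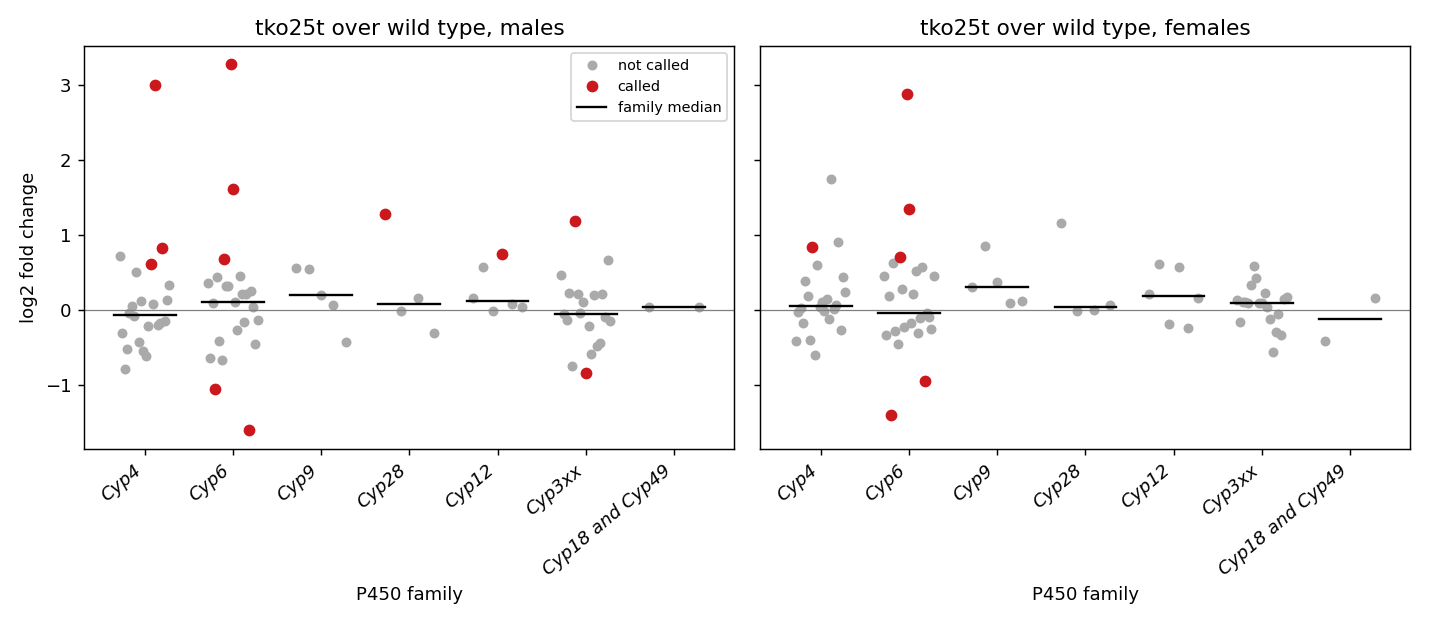
Log2 fold change of tko25t over wild type for each of the 81 P450 genes in males (left) and females (right), grouped by family along the x axis, with called genes in red and a bar at the family median. The medians lie near 0, from -0.06 to 0.20 in males and from -0.12 to 0.31 in females.

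The size of the genotype effect was not found to differ between the sexes for any member. Limma called 0 of 81 members and 0.032% of all probe sets, and 5 members (6.17%) had an unadjusted p under 0.05, a smaller share than the 11.4% of all probe sets. These were Cyp312a1 (male minus female -0.93), Cyp6t1 (-0.66), Cyp6w1 (-0.59), Cyp9h1 (-0.54) and Cyp4aa1 (1.13), with adjusted p between 0.239 and 0.423.

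Markers of other tissues were set beside these results. The 3 matched markers of larval fat body, Lsp2, Fbp1 and Fbp2, summed to 5974, 3358 and 9245 in tko25t males and to 775 to 1251 in wild-type males, and all 3 were called higher in mutant males. In tko25t females the sums were 5095, 284 and 1701 on replicates 1, 2 and 3 and in wild-type females 200 to 812, and none of the 3 was called. Of the 13 called P450 genes, 9 followed the order of these sums over the mutant females (69.2%), as did 36 of the 81 members (44.4%) and 19.0% of all probe sets, a comparison made after the values were seen. In mutant males the shares were 23.1% of the called genes (3 of 13), 21.0% of members and 18.4% of all probe sets. Cyp6a23, Cyp28a5, Cyp4e3 and Cyp309a1 were lowest on the mutant female array with the least marker signal and highest on the one with the most. So was Cyp6a17, which fell in mutants. In mutant males Cyp28a5 and Cyp6a17 followed the order of the marker sums, and Cyp6a23, Cyp4e3 and Cyp309a1 did not. The part of larval fat body in these results was not tested.

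**Figure D4:**
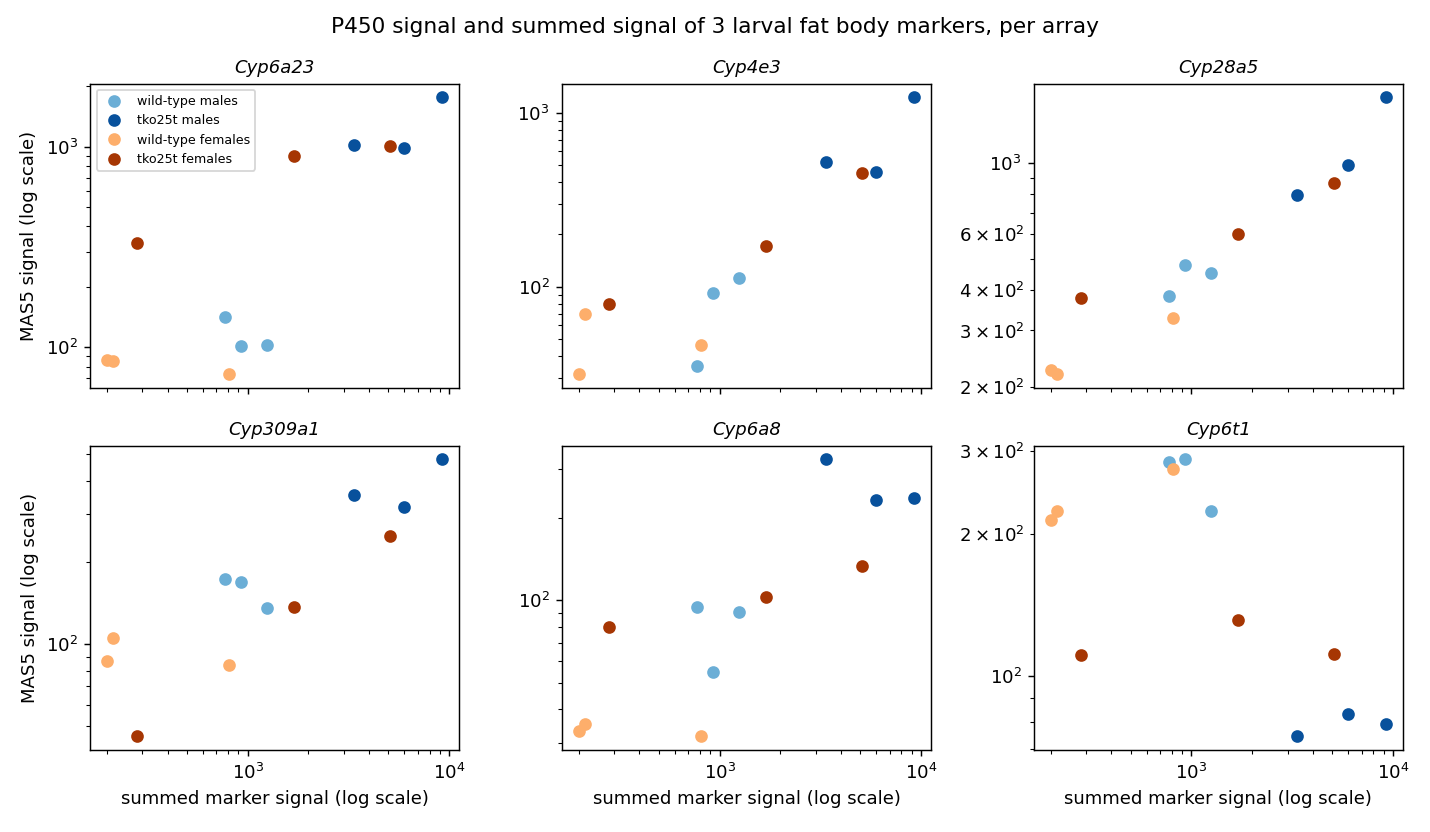
Signal of 6 P450 genes on the y axis of each panel against the summed signal of 3 larval fat body markers on the x axis, both on log axes, 1 point per array (12 arrays, coloured by group). Over the 3 mutant females, Cyp6a23, Cyp4e3, Cyp28a5, Cyp309a1 and Cyp6a8 follow the order of the marker sum and Cyp6t1 does not.

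The 10 midgut markers, mostly digestive proteases and maltases, summed to 40782 to 43269 in mutant and 27608 to 29699 in wild-type females. There 5 of them rose and 0 fell by limma. The maltases Mal-A1 and Mal-A6 went the other way without a call, with means of 1530 and 630 in mutant against 2071 and 990 in wild-type females. In males the sums overlapped, at 28306 to 42928 in mutants and 26880 to 31924 in wild type, and 1 rose. The 2 Malpighian tubule markers matched, Irk3 and ZnT35C, summed to 479 to 542 in mutant and 509 to 616 in wild-type males and to 605 to 680 and 524 to 544 in females, with 0 called by limma (adjusted p = 0.234 to 0.857). The part of midgut in the P450 results was not tested.

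Genes that may serve P450s were read from lists of redox partners, heme synthesis and regulators. Of these 16 genes, 4 (25%; 2.14% of all probe sets) rose in males and 0 (0.485% of all) rose in females. Whether they act with P450s or elsewhere in these flies was not tested. The lists also held Cpr, the P450 reductase, and dare, but neither was matched to a probe set, so they are not covered. Of 4 genes matched from the redox list, the b5-type gene Cyt-b5-r rose in males by a log2 of 0.53 (SE 0.10, adjusted p = 0.0271). The ferredoxin Fdx1 rose in males by 0.79 (SE 0.17, adjusted p = 0.0343). Cyt-b5 and Fdx2 were not called, and 0 of 4 were called in females by limma (adjusted p = 0.588 to 0.807). Of 6 genes of heme synthesis FeCH, the ferrochelatase that inserts iron, rose in males by 0.96 (SE 0.13, adjusted p = 0.00587), against 0.23 in females (adjusted p = 0.586). Alas, the first enzyme of that pathway, stood at -0.06 and -0.10. Among 6 regulators of P450 genes, cnc, the fly Nrf2, rose in males by 0.47 (SE 0.10, adjusted p = 0.0369) and stood at -0.03 in females, and its inhibitor Keap1 and the xenobiotic receptor Hr96 were not called. None of the 5 ecdysteroid P450 genes spo, spok, dib, sad and shd was called in either sex by limma (adjusted p = 0.165 to 0.842 in males and 0.487 to 0.997 in females).

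The sexes were also compared within each genotype. In wild type 41 members were called (50.6%; 48.7% of all probe sets): 32 (39.5%; 22.2% of all probe sets) were higher in males and 9 (11.1%; 26.5% of all) were lower. In tko25t 35 were called (43.2%; 41.6% of all): 28 (34.6%; 17% of all) were higher and 7 (8.64%; 24.6% of all) lower. The median of the array itself was higher in males by a log2 of 0.34 in wild type and 0.21 in tko25t, and after centring each array on its median 19 members (23.5%; 13.9% of all) were higher and 13 (16%; 36.3% of all) lower in wild type. In tko25t these were 20 (24.7%; 13.2% of all) and 14 (17.3%; 32.3% of all). Of the 48 genes called in either genotype, 28 were called in both, 22 of them higher and 6 lower in males.

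Cyp312a1 was the most male-biased member. Beside the male values above, females gave 1.4 to 6.8 in tko25t and 1.5 to 3.7 in wild type, all under the 25th percentile of their arrays (9.5 to 11.4), so that the difference of 6.0 (SE 0.19) in wild type and 5.07 (SE 0.19) in tko25t depends on the added constant. Cyp4d21, known as sxe1 and required in the male fat body for normal mating, gave 420, 620 and 583 in wild-type and 557, 369 and 197 in mutant males but 16.2 to 36.0 in all females. Its male excess was 3.85 (SE 0.31, adjusted p = 2.87e-07) in wild type and 3.13 (SE 0.31, adjusted p = 2.54e-06) in tko25t. Cyp313a1, the brightest Cyp3xx gene, gave 1883 to 1969 in wild-type and 1343 to 1958 in mutant males and 341 to 595 in females, a difference of 2.29 (SE 0.19, adjusted p = 3.58e-07) and 1.85 (SE 0.19, adjusted p = 3.33e-06).

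Cyp6a19, from the same 2R cluster as Cyp6a23, was the most female-biased. Signals were 1016, 1191 and 702 in wild-type and 666, 980 and 722 in mutant females against 61.9, 37.3 and 22.8 in wild-type and 33.3, 21.8 and 23.0 in mutant males. The difference was -4.26 (SE 0.26, adjusted p = 2.80e-08) in wild type and -4.40 (SE 0.26, adjusted p = 3.10e-08) in tko25t. On the wild-type male arrays the gene followed the order of the ovary transcripts (5147, 3102 and 401). The part of ovary RNA in these male values was not tested. Cyp6a9, Cyp6v1 and Cyp6u1 were also lower in males in both genotypes, at -1.16, -1.29 and -0.96 in wild type and -0.88, -1.49 and -0.82 in tko25t. A probe set shared by shn and Cyp6v1 was not counted. With limma it gave -0.56 (adjusted p = 0.0141) in wild type but -0.05 (adjusted p = 0.849) in tko25t. Cyp18a1, which inactivates the moulting hormone by oxidising its side chain, gave 269 to 352 in wild-type and 227 to 244 in mutant females against 66.2 to 91.3 and 70.5 to 97.5 in males, a difference of -1.82 (SE 0.15, adjusted p = 3.02e-07) and -1.38 (SE 0.15, adjusted p = 5.34e-06). Its second probe set gave -1.27 and -1.07.

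**Figure D5:**
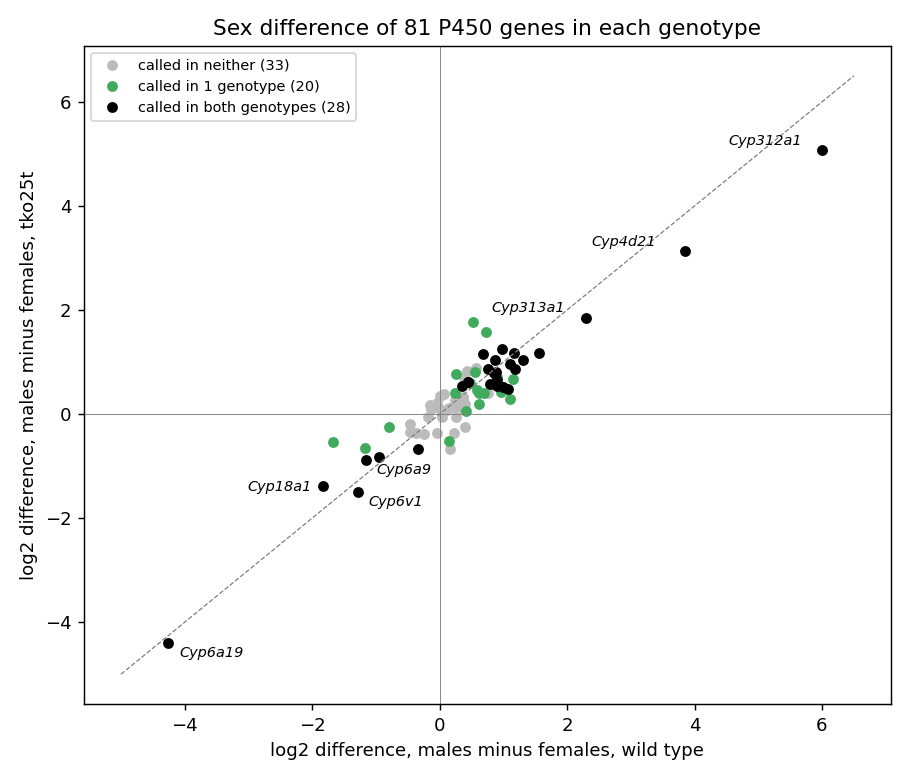
Log2 difference of males minus females for each of the 81 P450 genes, in wild type on the x axis and in tko25t on the y axis, coloured by the number of genotypes in which it was called, with the line of equal difference dashed. Cyp312a1, Cyp4d21 and Cyp313a1 lie to the upper right and Cyp6a19 to the lower left.

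All 4 Cyp28 genes had higher signals in males in both genotypes, 3 of them called in wild type and 4 in tko25t. The values in this paragraph were not centred on the array median, which was higher in males by 0.34 in wild type and 0.21 in tko25t. The wild-type difference of Cyp28d1, 0.25 and not called, was smaller than that shift. Of 22 Cyp4 genes, 13 were higher and 2 lower in wild-type males, and 10 and 1 in tko25t males. The Cyp6 family was more evenly divided, with 6 higher and 5 lower in wild type and 5 and 5 in tko25t. Cyp6a8 and Cyp28a5, which rose in mutant males, were higher in males than in females in both genotypes, by 0.98 and 0.76 in wild type and 1.25 and 0.87 in tko25t. Cyp4e3 and Cyp309a1 were called higher in males only in tko25t, by 1.78 (SE 0.55, adjusted p = 0.0187) and 1.57 (SE 0.39, adjusted p = 0.00528), and the test of the difference between genotypes, which is that of the difference between sexes above, did not call either. The Cyp4e3 call ended when male mutant replicate 3 or female mutant replicate 2 or 3 was omitted (adjusted p = 0.0907, 0.0937 and 0.0517).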

How the data were processed

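The deposited values are intensities, MAS5 signals that the authors made with the GCOS software and scaled array by array to equal trimmed means. Probe sets took their gene from the array annotation (13646 with 1 symbol, 402 with several, 4721 with none). The 183 control probe sets were left out and 18769 tested without a filter on signal. Signals plus 11.9, the median over arrays of the 25th percentile, were put on the log2 scale and fitted with limma 3.58.1 (R 4.3.3), the variance being allowed to follow the signal, and p-values were adjusted by Benjamini-Hochberg. Genotypes were compared within each sex on 6 arrays, and the average, the difference between the sexes and the sex comparisons came from 4 group means over 12 arrays, in which a male and a female array may share a cross. Correlations within groups ran from 0.957 to 0.985 and no 2 arrays were identical. The number of arrays limits the precision. Called members of the genotype comparisons, up to 12 in each direction, were named. Of the members called between the sexes only some were named. The brightest of the Cyp4, Cyp9, Cyp12, Cyp28 and Cyp3xx genes were named too. Members and lists were chosen with earlier results of these data known. Gene order came from the RefSeq Release 6 table. The study's detection filter was not used. SAM after the study's methods, other offsets, filters and scalings, a replicate block and the omission of arrays were alternatives. The fits were tested on simulated data. Tables and plots were made in Python 3.11.15 (pandas 2.3.3, matplotlib 3.10.9).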

Additional observations from a re-analysis of the deposited data

How the results depend on the processing

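The 12 calls in males became 3 with limma without the trend, 7 with SAM after the study's methods and 2 (Cyp6a23 and Cyp6t1) without the 3 arrays that carried transcripts of the other sex, wild-type male replicates 1 and 2 and tko25t female replicate 1. Of all probe sets, these settings called 0.57%, 1.47% and 0.165%. The 6 calls in females became 0, 4 and 1 (Cyp6a17) in turn, where 0.336%, 0.9% and 0.272% of all probe sets were called. Averaged over the sexes, the 15 calls became 10 without those 3 arrays (1.39% of all), and the 41 sex calls in wild type became 28 (40.8% of all). The cause was not tested, beyond the fewer arrays in those fits. With single arrays left out, the counts ran from 8 to 12 in males, 0 to 10 in females, 11 to 19 in the average, 34 to 44 and 27 to 38 for sex in wild type and tko25t, and 0 to 0 for the difference between the sexes. The male and female ranges include refits without an array of the other sex, which leave those fits and their counts unchanged. No refit without a male array kept all 12 male calls, since Cyp4e1 was lost in each. With only probe sets above the median mean signal tested, 16 of 57 members were called in males (12.2% of all) and 6 of 58 in females (2.1% of all). Over 81 named values and 1638 alternatives, 1500 kept their direction and side of the threshold, 128 lost the call, 5 gained it and 5 turned sign, all 5 in uncalled female values: Cyp309a1 to -0.16 and Cyp312a1 to -0.049, each both without the 3 arrays and without mutant replicate 1, and Cyp4e1 to -0.0041 without mutant replicate 3. With single arrays left out these 3 values ran from -0.16 to 0.93, from -0.049 to 0.20 and from -0.0041 to 0.24. The 1500 include within-sex values refitted without an array of the other sex, which could not change because those fits do not use it. They also include uncalled values, which could not lose a call. The 1500 are therefore no measure of how firm the calls are. Same-numbered arrays did not deviate together in males (correlations 0.03, -0.14 and 0.12) and differed in females (0.02, 0.39 and 0.45), so the numbers were not taken as pairs. With the replicate number as a block, 12 members were called in males, 4 in females, 15 in the average, 0 for the difference between the sexes, and 41 and 35 for sex. For the block and for the counts with single arrays left out, the shares of all probe sets are not given. Those counts are thus not read as particular to the family.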

Other observations

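The probe set common to Cyp12d1-d and Cyp12d1-p, a pair of near-identical mitochondrial-clan genes known from DDT resistance, belongs to no single gene and was not counted. It gave 122, 150 and 140 in tko25t males and 264, 232 and 172 in wild-type males, and 95.3, 84.1 and 135 in tko25t females and 206, 150 and 170 in wild-type females. The mutant arrays were all below the wild-type arrays of their sex. With limma the log2 fold change was -0.64 (adjusted p = 0.0582) in males and -0.70 (adjusted p = 0.226) in females, and -0.67 (SE 0.13, adjusted p = 0.0140) averaged over the sexes.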
